A study of Mus musculus with 16 samples.

Results

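The cytoplasmic ribosomal protein genes were examined in mouse bone marrow, in 2 kinds of B cell precursor leukemia and in normal B cell precursors. A gene was a member when an array probe set named it alone and its symbol was Rpl or Rps with digits and at most a letter a, x or y, or was Rplp0, Rplp1, Rplp2 or Rpsa. This gave 53 genes of the 19938 genes measured, 33 of the large and 20 of the small subunit, covered by 208 probe sets. Of 76 mouse genes whose symbols follow the same pattern in the RefSeq annotation, 23 were not members, and 16 of those, Rpl11, Rpl13a and Rpl39 among them, appeared in probe sets that named several genes. Where a gene had several probe sets, the brightest on average was used.

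The samples came from Bank1+/- Pax5+/- mice with leukemia (Bank1/Pax5 leukemia, 6 arrays) and from Pax5+/- mice with leukemia (Pax5 leukemia, 6 arrays), both from total bone marrow, and 4 arrays came from pro-B and pre-B cells of wild-type (WT) marrow. Pax5 is a transcription factor that sets B cell identity, and Bank1 is a scaffold protein of B cell receptor signalling. Both leukemia groups thus carried 1 disrupted Pax5 allele, and the mice had lived with common pathogens; the labels give neither age nor strain and name no treatment. The WT arrays were labelled leukemic in 1 field although their source was a normal precursor fraction, and the design text counts 3 WT mice where 4 WT arrays were deposited. Because whole leukemic marrow was set against a normal cell fraction, disease and cell composition cannot be told apart in the comparisons with WT.

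Ribosomal proteins form, with ribosomal RNA, the large and small subunits of the cytoplasmic ribosome. Their genes are active in every dividing cell and their mRNAs are among the most abundant, most of them beginning with a run of pyrimidines, the TOP motif, through which mTORC1 and Larp1 set how strongly they are translated. Arrays read mRNA level and not translation. Shortage of single ribosomal proteins frees Rpl5 and Rpl11 to bind Mdm2, and in humans inherited loss of such genes causes Diamond-Blackfan anemia, while RPL5, RPL10 and RPL22 are altered in T cell leukemia.

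The sequence that this family is known for was looked up around the annotated start of each gene, since many members rose in both leukemias. RefSeq (GRCm38.p6) promoter entries were matched to 42 of the 53 genes, with 49 entries. Rpl21, Rpl23a, Rpl29, Rpl30, Rpl36, Rpl7, Rpl8, Rplp1, Rps14, Rps20 and Rps29 were not matched. The windows run from 25 bases before the start to 25 bases from it on, 5′ to 3′ on the gene's strand, with capitals for an unbroken run of at least 8 C or T letters over the start base. The first 4 hold such a run, and the other 3 do not: Rpl24 and Rpl12 for their size of difference, Rps4x for its direction.
Rpl14: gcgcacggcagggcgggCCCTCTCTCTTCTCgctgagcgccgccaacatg
Rpl34: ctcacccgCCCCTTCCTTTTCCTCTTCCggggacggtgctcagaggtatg
Rps18: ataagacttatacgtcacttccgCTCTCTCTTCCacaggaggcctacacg
Rps6: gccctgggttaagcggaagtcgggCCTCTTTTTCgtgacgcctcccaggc
Rpl24: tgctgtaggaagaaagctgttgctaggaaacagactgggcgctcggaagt
Rpl12: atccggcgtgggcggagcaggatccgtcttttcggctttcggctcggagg
Rps4x: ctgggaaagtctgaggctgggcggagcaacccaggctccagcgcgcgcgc

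The windows lie at chr9:120571492-120571541 for Rpl14, chr16:55966250-55966299 for Rpl24 and chr2:32961687-32961736 for Rpl12, all on the plus strand. On the minus strand they lie at chr3:130730313-130730362 for Rpl34, an internal start of its gene record, at chr17:33955641-33955690 for Rps18, at chr4:86857343-86857392 for Rps6 and at chrX:102189367-102189416 for Rps4x. A C or T run of at least 8 letters over the start was present in 12 of the 49 entries (24.5%), against 3.86% of all 32851 promoters of the same length. The letters CCGGAAG, an ETS-type word searched on both strands of the 300 bases, stood in 34.7% of the members' entries and in 8.86% of all promoters. The reverse complement of that word begins with C and T letters and can share bases with a run. Annotated starts can differ from those a cell uses, and absence of a run says only that these letters are not at the annotated base. Of the 12 genes with a run, 4 were higher in Bank1/Pax5 leukemia and 5 in Pax5 leukemia than in WT. Of the 30 genes without a run 17 and 21 were, beside 6.8% and 9.53% of all genes. Of the 16 genes with CCGGAAG 8 and 8 were, and of the 26 without it 13 and 18. Genes with no matched promoter are in none of these classes, and the part of either sequence in the differences was not tested.

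All values are log2 levels, so that a difference of 1 is a 2-fold change. Differences carry the standard error (SE) of a linear model fitted with limma to all genes, and a gene passed the two-sided test when its p, adjusted over the 19938 genes by Benjamini-Hochberg, was under 0.05. Array medians lay between 6.58 and 6.71, and the number of arrays limits the precision. Bank1 averaged 8.63 ± 0.78 in Bank1/Pax5 leukemia, 10.18 ± 0.79 in Pax5 leukemia, against 9.17 ± 0.12 in WT (SD, n = 6, 6 and 4). The Pax5 mRNA lay at 7.85 to 11.85 in Bank1/Pax5 leukemia, 7.52 to 12.21 in Pax5 leukemia and 11.85 to 12.12 in WT, and 3 leukemia arrays, Bank1/Pax5 arrays 1 and 5 and Pax5 array 3, were under 9.

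B cell precursor markers were read in each group but were lower in the leukemias: the summed level of the 11 measured of 12 listed genes ranged from 12.17 to 15.22 in Bank1/Pax5 leukemia, 12.82 to 15.36 in Pax5 leukemia and 15.63 to 15.68 in WT. All 11 had a negative difference from WT in Bank1/Pax5 leukemia (median -1.79) and 10 of 11 in Pax5 leukemia (median -1.47). Of them 3 and 2 passed as lower, beside 12.8% and 13.8% of all genes, and none as higher. Markers of other marrow cells moved with the groups too. The 7 measured of 11 megakaryocyte markers summed to 12.97 to 14.64 and 12.52 to 14.30 in Bank1/Pax5 and Pax5 leukemia, against 9.83 to 9.99 in WT. For the 14 of 15 monocyte and macrophage markers the ranges were 12.84 to 14.95, 12.65 to 14.12 and 11.35 to 12.33 in the same order of groups, and in WT 11 of the 14 had a mean below 7.01, the median of all named probe sets. The 13 stromal and endothelial markers summed to 12.51 to 14.09 and 12.26 to 13.96 in the leukemias, against 11.42 to 11.56 in WT. The 11 NK cell markers lay at 11.54 to 12.63 in Bank1/Pax5 leukemia, 9.83 to 11.90 in Pax5 leukemia and 11.88 to 12.74 in WT. The 6 of 13 erythroid markers summed to 11.25 to 13.52 in Bank1/Pax5 leukemia, 11.22 to 11.85 in Pax5 leukemia and 12.27 to 12.80 in WT. The 14 neutrophil markers lay at 12.11 to 16.17, 11.64 to 15.76 and 11.25 to 13.99 in the same order, the 10 of 13 T cell markers at 12.04 to 13.07, 11.53 to 12.89 and 12.86 to 12.93, and the 8 plasma cell markers at 12.79 to 13.85, 12.60 to 13.24 and 12.86 to 13.22. The part of these cells in the ribosomal protein differences was not tested, and fewer cells of a type and less RNA per cell cannot be told apart.

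Ribosomal protein mRNAs stood higher in both leukemias than in normal precursors. The median over the 53 genes lay on the Bank1/Pax5 leukemia arrays at 12.10 to 12.56, with a mean of 12.33 ± 0.15 (SD, n = 6). On the Pax5 leukemia arrays it lay at 12.31 to 12.51, with a mean of 12.39 ± 0.07 (SD, n = 6), and on the WT arrays at 11.91, 11.99, 11.93 and 11.88, with a mean of 11.93 ± 0.05 (SD, n = 4). Every leukemia array was above every WT array, while the leukemia groups overlapped. The median over all genes differed little, at 6.96 ± 0.06, 6.90 ± 0.03 and 6.86 ± 0.04 in Bank1/Pax5 leukemia, Pax5 leukemia and WT (SD, n = 6, 6 and 4).

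**Figure D1:**
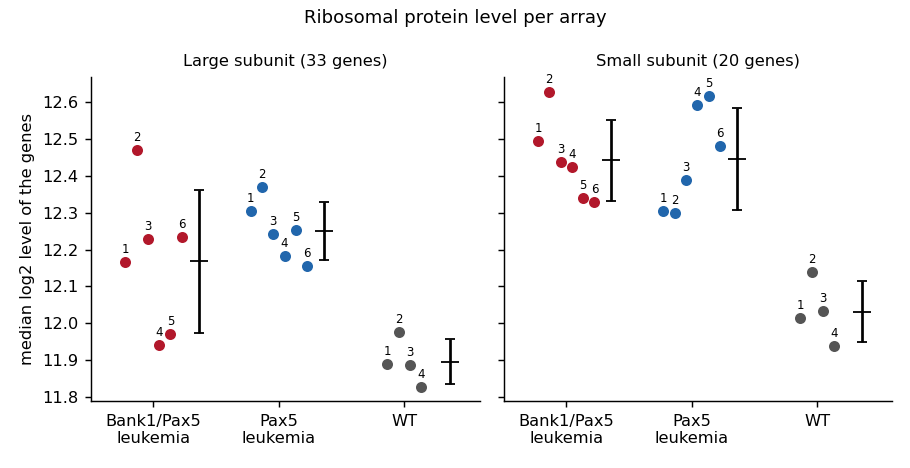
Median log2 level of the 33 large subunit genes (left) and the 20 small subunit genes (right) on each array, with the array number above each point and the group mean and SD beside it. Both subunits are higher on all 12 leukemia arrays than on 3 of the 4 WT arrays, but for the large subunit Bank1/Pax5 arrays 4 and 5 (11.94 and 11.97) fall at the level of WT array 2 (11.98).

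Both subunits stood higher in the leukemias. The median of the large subunit genes averaged 12.17 ± 0.19 in Bank1/Pax5 leukemia, 12.25 ± 0.08 in Pax5 leukemia, against 11.90 ± 0.06 in WT. For the small subunit genes the means were 12.44 ± 0.11, 12.45 ± 0.14 and 12.03 ± 0.08 (SD, n = 6, 6 and 4). The large subunit values of Bank1/Pax5 leukemia overlapped those of WT through 2 arrays, and the small subunit values did not overlap WT in either leukemia.

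Between Bank1/Pax5 leukemia and WT, 26 of the 53 genes rose and none fell, while 6.8% of all genes rose and 12.8% fell. The limma fit placed 1 member lower at an unadjusted p under 0.05, and 33 higher, beside 4073 and 2487 of all 19938 genes. Every Bank1/Pax5 leukemia array was above every WT array for 24 members, against 7.35% of all genes, and none lay wholly below, against 12.3%. The median difference was 0.22, beside -0.03 over all genes. Both subunits took part, with 14 of 33 large and 12 of 20 small subunit genes. Without the 3 arrays with low Pax5 mRNA 21 members rose.

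Between Pax5 leukemia and WT, 31 of the 53 rose and none fell, against 9.53% and 13.8% of all genes. At an unadjusted p under 0.05 the limma fit placed 39 members higher and none lower, beside 2878 and 4593 of all 19938 genes. For 31 members every Pax5 leukemia array lay above every WT array, against 11.6% of all genes. The members' median difference was 0.33, beside -0.05 over all genes. Here 17 of 33 large and 14 of 20 small subunit genes rose, and 28 members rose without the 3 arrays of low Pax5 mRNA. Both comparisons use the same WT arrays, so their calls are not independent. In all, 21 members passed in both, 5 in Bank1/Pax5 leukemia only by its own test (Rpl23a, Rpl38, Rps20, Rps4x, Rps7), 10 in Pax5 leukemia only by its own test, and 17 in neither.

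**Figure D2:**
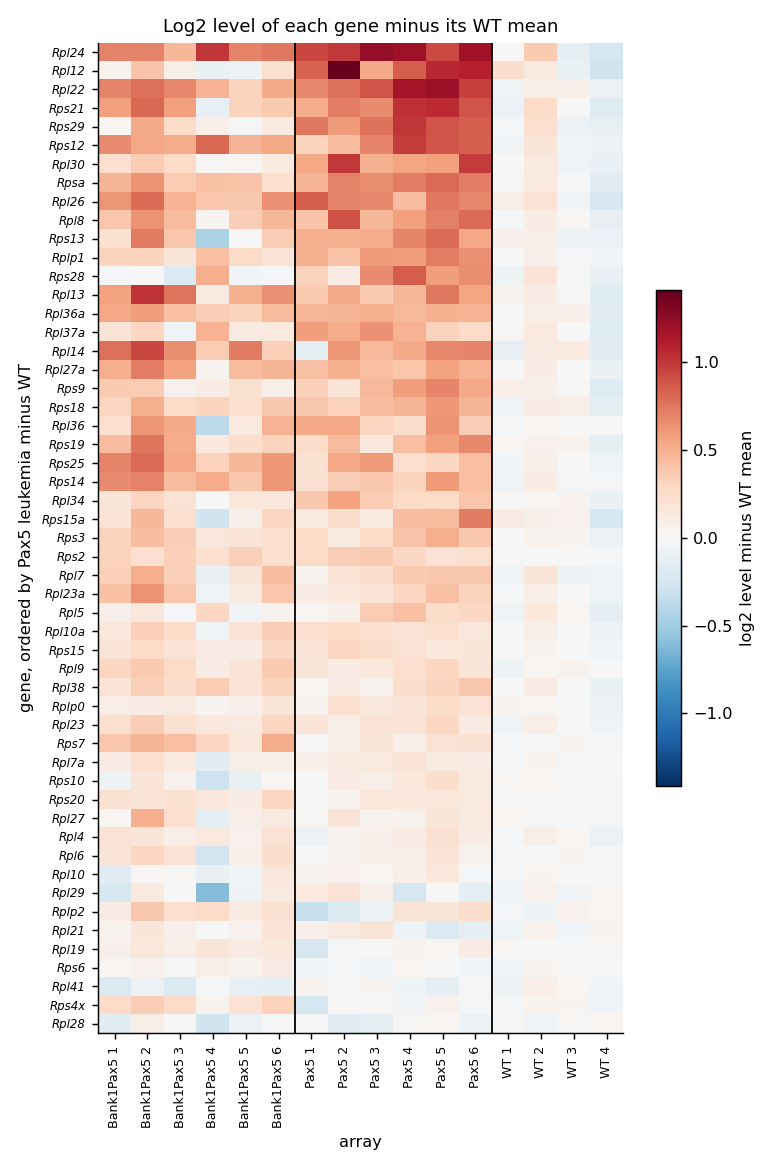
Log2 level of each of the 53 genes (rows) on each of the 16 arrays (columns) minus that gene's mean over the 4 WT arrays, red above and blue below, with rows ordered by the difference between Pax5 leukemia and WT. Red dominates both leukemia blocks, Rpl24, Rpl22 and Rps12 are red throughout them, and Rpl12, Rps29 and Rpl30 are strongest in the Pax5 block. Within the leukemia blocks the blue cells cluster on Bank1/Pax5 array 4, and the WT columns, centred on their own mean, also hold blue cells.

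Among large subunit genes, Rpl24, a late-joining protein at the subunit interface, had the largest difference in both leukemias. Its level was 11.17 to 11.71 (median 11.40) in Bank1/Pax5 leukemia, 11.63 to 11.94 (median 11.79) in Pax5 leukemia and 10.46, 10.57, 10.70 and 11.06 in WT. All leukemia arrays were above all WT arrays, and the leukemia groups overlapped. It rose 1.65-fold in Bank1/Pax5 leukemia (log2 difference 0.72, SE 0.12, adjusted p = 0.000562) and 2.12-fold in Pax5 leukemia (1.08, SE 0.12, adjusted p = 1.92e-05).

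Rpl22, which binds RNA, is needed for T cell development in mice and is lost in some human leukemias, lay at 8.56 to 9.01 (median 8.84) in Bank1/Pax5 leukemia, 8.91 to 9.45 (median 9.16) in Pax5 leukemia and 8.15, 8.17, 8.30 and 8.32 in WT. No leukemia array reached down to WT. The differences were 0.58 in Bank1/Pax5 leukemia (SE 0.11, adjusted p = 0.00159) and 0.95 (SE 0.11, adjusted p = 3.05e-05) in Pax5 leukemia.

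Rpl36a, an X-linked gene, had the smallest p of the members in Bank1/Pax5 leukemia. It lay at 12.72 to 12.99 (median 12.84) in Bank1/Pax5 leukemia, 12.86 to 12.92 (median 12.88) in Pax5 leukemia and 12.26, 12.38, 12.47 and 12.50 in WT, with no overlap with WT. It rose by 0.45 (SE 0.06, adjusted p = 0.000103) and 0.48 (SE 0.06, adjusted p = 4.67e-05) in Bank1/Pax5 and Pax5 leukemia. Rpl26, known for binding the p53 mRNA, lay at 10.18 to 10.59 (median 10.36) in Bank1/Pax5 leukemia, 10.24 to 10.65 (median 10.49) in Pax5 leukemia and 9.56, 9.76, 9.90 and 9.99 in WT. It too was clear of WT, with differences of 0.55 (SE 0.10, adjusted p = 0.00131) and 0.68 (SE 0.10, adjusted p = 0.000253).

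Rpl14 and Rpl13 had the next largest differences in Bank1/Pax5 leukemia. Rpl14 lay at 9.68 to 10.28 (median 10.03) there, 9.20 to 10.03 (median 9.92) in Pax5 leukemia and 9.19, 9.23, 9.46 and 9.47 in WT. Only Pax5 array 1, at 9.20, fell within the WT range. The difference from WT was 0.63 in Bank1/Pax5 leukemia (SE 0.16, adjusted p = 0.0108) and 0.47 (SE 0.16, adjusted p = 0.0414) in Pax5 leukemia, where leaving out any 1 of the WT arrays or of Pax5 arrays 2 to 6 ended the call, with adjusted p up to 0.124. Without the 3 arrays of low Pax5 mRNA the Rpl14 calls ended in Bank1/Pax5 leukemia (adjusted p = 0.0659) and in Pax5 leukemia (0.0778). The Pax5 leukemia call of Rpl14 also ended with the replicate numbers as a block (0.0952). Rpl13 lay at 10.83 to 11.73 (median 11.31) in Bank1/Pax5 leukemia, 11.08 to 11.46 (median 11.21) in Pax5 leukemia and 10.54, 10.72, 10.76 and 10.82 in WT. Bank1/Pax5 array 4 was just above the highest WT array, and the differences were 0.60 (SE 0.13, adjusted p = 0.00499) and 0.51 (SE 0.13, adjusted p = 0.0126), of which the Pax5 leukemia call ended without WT array 4 (adjusted p = 0.0513).

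Other large subunit genes did not pass. Rpl5, which carries the 5S RNA with Rpl11, lay at 12.47 to 12.80 (median 12.57) in Bank1/Pax5 leukemia, 12.54 to 12.93 (median 12.79) in Pax5 leukemia and 12.38, 12.46, 12.54 and 12.66 in WT. Both leukemia ranges overlapped WT, and the differences of 0.09 (SE 0.09, adjusted p = 0.524) and 0.24 (SE 0.09, adjusted p = 0.0641) did not pass, although that in Pax5 leukemia passed without WT array 2 or Pax5 array 1 or 2 (adjusted p down to 0.0261). Rpl10, needed for joining of the subunits, lay at 13.22 to 13.53 (median 13.36), 13.35 to 13.51 (median 13.42) and, in WT, 13.35, 13.35, 13.36 and 13.41. The WT values lay inside the Bank1/Pax5 leukemia range, and the differences were -0.01 in Bank1/Pax5 leukemia (SE 0.05, adjusted p = 0.89) and 0.06 (SE 0.05, adjusted p = 0.443) in Pax5 leukemia. Rpl41, whose product is a very short basic peptide, was the member closest to a fall, at -0.13 in Bank1/Pax5 leukemia (SE 0.05, adjusted p = 0.102).

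The stalk proteins, which recruit elongation factors to the large subunit, gave unlike values. Rplp1 lay at 13.14 to 13.39 (median 13.25) in Bank1/Pax5 leukemia, 13.37 to 13.69 (median 13.56) in Pax5 leukemia and 12.93, 12.94, 12.95 and 13.04 in WT. It was clear of WT in both leukemias and rose by 0.28 (SE 0.06, adjusted p = 0.00601) and 0.58 (SE 0.06, adjusted p = 2.2e-05). Its partner Rplp2 lay at 8.27 to 8.55 (median 8.38) in Bank1/Pax5 leukemia, 7.84 to 8.40 (median 8.21) in Pax5 leukemia and 8.09, 8.15, 8.18 and 8.22 in WT, with differences of 0.22 (SE 0.10, adjusted p = 0.141) and 0.00 (SE 0.10, adjusted p = 0.994). Rplp0, the stalk base, was 13.36 to 13.49 (median 13.42), 13.36 to 13.58 (median 13.51) and, in WT, 13.24, 13.32, 13.35 and 13.36. It touched the WT range in both leukemias and passed in Pax5 leukemia alone by its own test (0.18, SE 0.05, adjusted p = 0.0125; Bank1/Pax5 leukemia 0.10, SE 0.05, adjusted p = 0.135). Without WT array 4 that call ended (adjusted p = 0.053). It also ended after cyclic loess normalisation (difference 0.09, adjusted p = 0.17), with dim genes removed (0.0541) and with the replicate numbers as a block (0.0676).

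**Figure D3:**
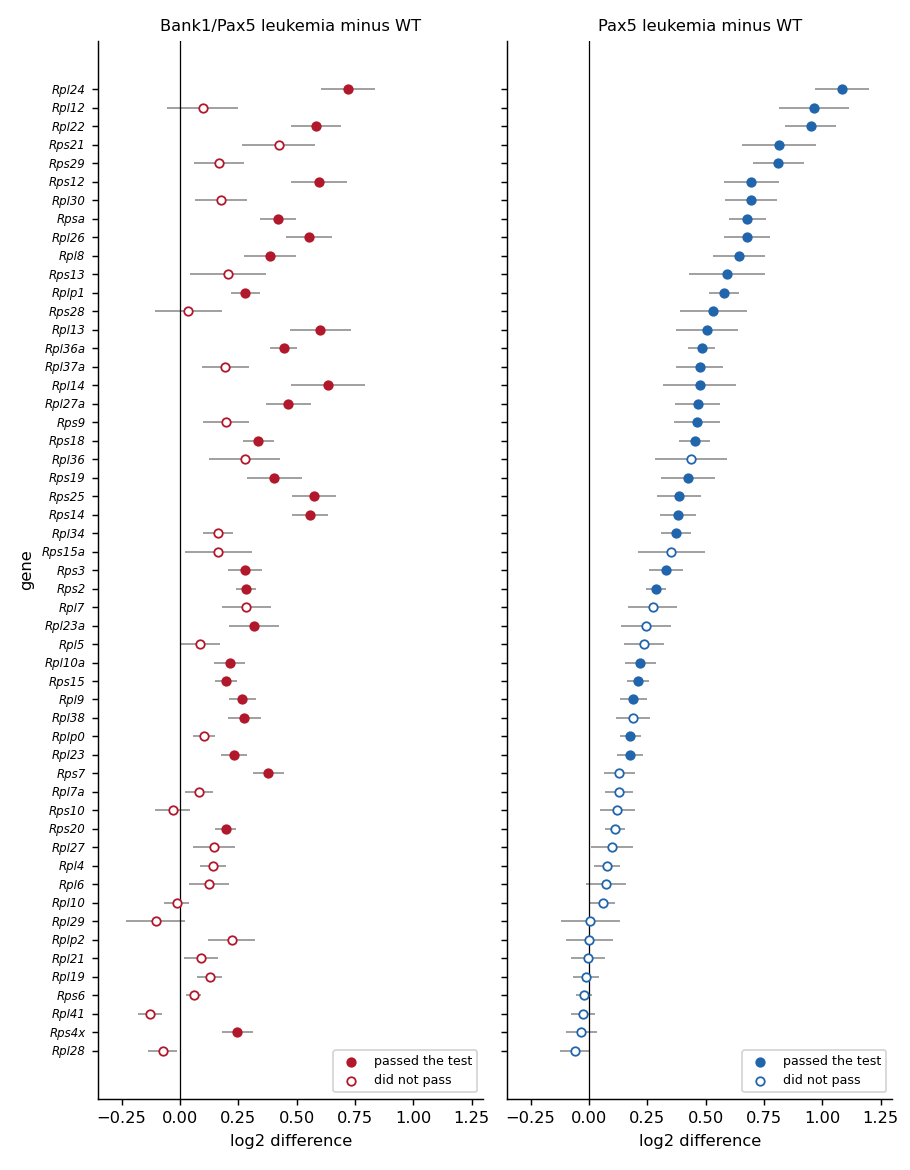
Log2 difference from WT of each of the 53 genes in Bank1/Pax5 leukemia (left) and Pax5 leukemia (right), with SE, filled where the gene passed the test and open where it did not. The points lie mostly right of 0 in both panels, up to 0.72 for Rpl24 on the left and 1.08 on the right, and no filled point lies left of 0.

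On the small subunit, Rps14, whose human counterpart is lost in the myelodysplastic 5q- syndrome, lay at 12.38 to 12.70 (median 12.58) in Bank1/Pax5 leukemia, 12.21 to 12.60 (median 12.37) in Pax5 leukemia and 11.94, 11.97, 11.99 and 12.11 in WT. No leukemia array overlapped WT. The rise was 0.56 in Bank1/Pax5 leukemia (SE 0.08, adjusted p = 0.000166) and 0.38 (SE 0.08, adjusted p = 0.00262) in Pax5 leukemia. Rps25, known for its part in translation from internal entry sites, lay at 11.92 to 12.40 (median 12.17), 11.81 to 12.20 (median 11.95) and, in WT, 11.54, 11.56, 11.61 and 11.68. It was also clear of WT, with differences of 0.58 (SE 0.09, adjusted p = 0.000632) and 0.39 (SE 0.09, adjusted p = 0.00899).

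Rps12 lay at 12.10 to 12.42 (median 12.16) in Bank1/Pax5 leukemia, 11.93 to 12.60 (median 12.39) in Pax5 leukemia and 11.54, 11.55, 11.58 and 11.79 in WT. Leukemia and WT arrays did not overlap, and the differences were 0.60 (SE 0.12, adjusted p = 0.00263) and 0.70 (SE 0.12, adjusted p = 0.000774). Rps2, a protein of the mRNA entry site, had small spread: 13.09 to 13.20 (median 13.14) in Bank1/Pax5 leukemia, 13.06 to 13.23 (median 13.14) in Pax5 leukemia and 12.83, 12.86, 12.87 and 12.88 in WT. All 12 leukemia arrays were above WT, by 0.28 (SE 0.04, adjusted p = 0.000281) and 0.29 (SE 0.04, adjusted p = 0.000243). The Bank1/Pax5 leukemia call of Rps2 ended with the probe set of largest interquartile range (adjusted p = 0.0625). Rps18, at the head of the small subunit, rose by 0.34 (SE 0.07, adjusted p = 0.00263) and 0.45 (SE 0.07, adjusted p = 0.00025), with all leukemia arrays at 12.80 or more and all WT arrays at 12.67 or less.

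Rpsa, which is also known as the laminin receptor, lay at 12.31 to 12.70 (median 12.48) in Bank1/Pax5 leukemia, 12.55 to 12.87 (median 12.78) in Pax5 leukemia and 11.91, 12.08, 12.09 and 12.20 in WT. Both leukemias were clear of WT, with differences of 0.42 (SE 0.08, adjusted p = 0.00162) and 0.68 (SE 0.08, adjusted p = 3.25e-05). Rps19, the gene most often mutated in human Diamond-Blackfan anemia, lay at 11.40 to 12.01 (median 11.63), 11.40 to 11.93 (median 11.69) and, in WT, 11.11, 11.28, 11.30 and 11.31. It was clear of WT and rose by 0.40 (SE 0.12, adjusted p = 0.0247) and 0.42 (SE 0.12, adjusted p = 0.0171). The Bank1/Pax5 leukemia call for Rps19 ended without WT array 1, 3 or 4, with adjusted p up to 0.0865, and the Pax5 leukemia call without WT array 4 (adjusted p = 0.0647). Both ended with the replicate numbers as a block (0.0804 and 0.061).

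Rps6, the small subunit protein phosphorylated by S6 kinases, did not pass in either leukemia. It read 13.43 to 13.53 (median 13.47) in Bank1/Pax5 leukemia, 13.37 to 13.44 (median 13.38) in Pax5 leukemia and 13.38, 13.40, 13.41 and 13.46 in WT. The groups overlapped, with differences of 0.06 (SE 0.03, adjusted p = 0.24) and -0.02 (SE 0.03, adjusted p = 0.675). Rps15, in the decoding region, lay at 13.36 to 13.55 and 13.39 to 13.55 in Bank1/Pax5 and Pax5 leukemia and at 13.21, 13.24, 13.25 and 13.30 in WT. It was clear of WT and rose by 0.20 (SE 0.05, adjusted p = 0.00871) and 0.21 (SE 0.05, adjusted p = 0.00517). The Pax5 leukemia call of Rps15 ended after cyclic loess (adjusted p = 0.0661). The Bank1/Pax5 leukemia call ended with probe sets averaged (0.0709) and with that of largest interquartile range (0.386).

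The direct comparison of the leukemias sets mice with 1 disrupted Bank1 allele, on a Pax5+/- background, against mice without it. Markers of other cells differed here too: in Bank1/Pax5 leukemia 3 of 11 NK cell markers, 2 of 10 T cell markers and 1 of 14 monocyte markers rose against Pax5 leukemia, and no listed marker fell. All 11 NK cell markers had a positive difference (median 1.24), as had all 6 erythroid markers (median 1.12), none of which passed in limma, where 4 were higher at an unadjusted p under 0.05. Their part in the differences below was not tested. Of the 53 members, 2 rose and 8 fell in Bank1/Pax5 leukemia against Pax5 leukemia, beside 1.71% and 5% of all genes. At an unadjusted p under 0.05 the counts were 7 and 16, beside 1860 and 2658 of all 19938 genes. The median difference was -0.05, beside 0.02 over all genes, and it turned to 0.03 under cyclic loess. All 6 Bank1/Pax5 leukemia arrays lay below all 6 Pax5 leukemia arrays for 3 members (Rps29, Rpl12 and Rpl30), against 1.87% of all genes, and lay above them for none, against 0.833%. Without the 3 arrays with low Pax5 mRNA 1 member rose (Rps7) and 3 fell (Rpl12, Rpl30, Rps29).

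Rps29, a zinc-binding small subunit protein mutated in some human Diamond-Blackfan anemia, lay at 11.16 to 11.73 (median 11.30) in Bank1/Pax5 leukemia, at 11.79 to 12.20 (median 11.99) in Pax5 leukemia and at 11.07, 11.10, 11.16 and 11.41 in WT. The Pax5 leukemia arrays stood above all others, and Bank1/Pax5 leukemia overlapped WT. It fell by 0.64 in Bank1/Pax5 leukemia (SE 0.10, adjusted p = 0.00221) relative to Pax5 leukemia. Against WT the difference was 0.17 in Bank1/Pax5 leukemia (SE 0.11, adjusted p = 0.301) and 0.81 (SE 0.11, adjusted p = 0.000107) in Pax5 leukemia.

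Rpl12, a protein of the stalk base, showed the same arrangement at a lower signal. It lay at 8.003 to 8.50 (median 8.16) in Bank1/Pax5 leukemia, 8.62 to 9.51 (median 9.05) in Pax5 leukemia and 7.82, 8.004, 8.22 and 8.34 in WT. It fell 1.82-fold relative to Pax5 leukemia (-0.87 on the log2 scale, SE 0.14, adjusted p = 0.00292). Against WT it differed in Bank1/Pax5 leukemia by 0.10 (SE 0.15, adjusted p = 0.689) and rose by 0.96 (SE 0.15, adjusted p = 0.000405) in Pax5 leukemia. Rpl30, an RNA-binding protein of the large subunit, lay at 9.21 to 9.55 (median 9.38), 9.69 to 10.19 (median 9.76) and, in WT, 9.10, 9.14, 9.19 and 9.33. It too separated the leukemias completely and fell by 0.52 (SE 0.10, adjusted p = 0.00795).

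Rplp1, the stalk protein given above, fell by 0.30 (SE 0.06, adjusted p = 0.00808), with the highest Bank1/Pax5 array (13.39) just above the lowest Pax5 array (13.37). Its call ended after cyclic loess (adjusted p = 0.0901), with the probe set of largest interquartile range (0.0735) and without the 3 arrays of low Pax5 mRNA (0.0512). Rps28 lay at 11.53 to 12.23 (median 11.69) in Bank1/Pax5 leukemia, 11.83 to 12.58 (median 12.35) in Pax5 leukemia and 11.63, 11.65, 11.70 and 11.91 in WT. Bank1/Pax5 array 4, at 12.23, was the only array of its group within the Pax5 leukemia range. The difference was -0.50 (SE 0.13, adjusted p = 0.0341). Rpl22, Rpsa and Rpl34, with the values given above for the first pair and 10.38 to 10.68 against 10.65 to 10.95 for Rpl34 in Bank1/Pax5 and Pax5 leukemia, overlapped between the leukemias. Their differences were -0.37 (SE 0.10, adjusted p = 0.0357), -0.26 (SE 0.07, adjusted p = 0.0389) and -0.21 (SE 0.06, adjusted p = 0.0433), and each call was open to single arrays. That of Rpl22 ended without any 1 of arrays 4 to 6 of either leukemia (adjusted p up to 0.0822), and that of Rpsa without any single array but Bank1/Pax5 array 2 and Pax5 array 1 (up to 0.0866). The call of Rpl34 held without Bank1/Pax5 array 2 or 3 or Pax5 array 4 or 5 and ended without any other (up to 0.0836). The call of Rps28 held without Bank1/Pax5 array 2 or 4 or Pax5 array 1 or 2 and ended without any other (up to 0.0751). Its rise in Pax5 leukemia against WT ended without WT array 4 (adjusted p = 0.0531) and after cyclic loess (0.054). Between the leukemias the calls of Rpl22, Rpsa, Rpl34 and Rps28 also ended after cyclic loess and in a fit to only those 2 groups. Without the 3 arrays of low Pax5 mRNA they ended too (0.117, 0.123, 0.142 and 0.17). Those of Rpl22, Rpsa and Rps28 ended with the replicate block (0.11, 0.0752 and 0.0707), and those of Rpl22, Rpsa and Rpl34 after median centring (0.0516, 0.0628 and 0.0869).

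Rps4x and Rps7 went the other way. Rps4x, an X-linked gene, lay at 12.70 to 13.00 (median 12.92) in Bank1/Pax5 leukemia, 12.40 to 12.71 (median 12.65) in Pax5 leukemia and 12.60, 12.62, 12.68 and 12.70 in WT. Pax5 leukemia and WT overlapped, and Bank1/Pax5 leukemia stood above but for its lowest array. Xist, the RNA of the inactive X in female cells, was not balanced over the groups: it read 12.81 and 12.46 on Bank1/Pax5 arrays 3 and 5 and 6.44 or less on the other 4, 9.96 on Pax5 array 2 and 5.99 or less on the other 5, and 12.51 to 12.69 in WT. Rps4x read 12.92 and 12.85 on Bank1/Pax5 arrays 3 and 5, and 12.70 to 13.00 on the other 4 arrays of that group. The part of sex in the values of Rps4x and the other X-linked members, Rpl36a and Rpl10, was not tested. It rose by 0.28 (SE 0.06, adjusted p = 0.0146) against Pax5 leukemia and by 0.25 (SE 0.07, adjusted p = 0.0177) against WT, and differed by -0.03 (SE 0.07, adjusted p = 0.741) between Pax5 leukemia and WT. Rps7, which can bind Mdm2, lay at 13.06 to 13.44 (median 13.33), 12.93 to 13.13 (median 13.05) and, in WT, 12.88, 12.90, 12.93 and 12.95. It rose by 0.25 (SE 0.06, adjusted p = 0.0241) against Pax5 leukemia and by 0.38 (SE 0.07, adjusted p = 0.00108) against WT, and the call between the leukemias ended without Pax5 array 4 (adjusted p = 0.0505), after median centring (0.064), with the replicate block (0.0514) and in a fit to only those 2 groups (0.0762). The Rps4x call between the leukemias ended in the 2-group fit (adjusted p = 0.0522) and without the 3 arrays of low Pax5 mRNA (0.0573). The rise of Rps4x against WT ended without WT array 1 or 4 (adjusted p = 0.0532 and 0.0596). It also ended with the replicate block (0.0508) and without the 3 arrays of low Pax5 mRNA (0.0592).

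**Figure D4:**
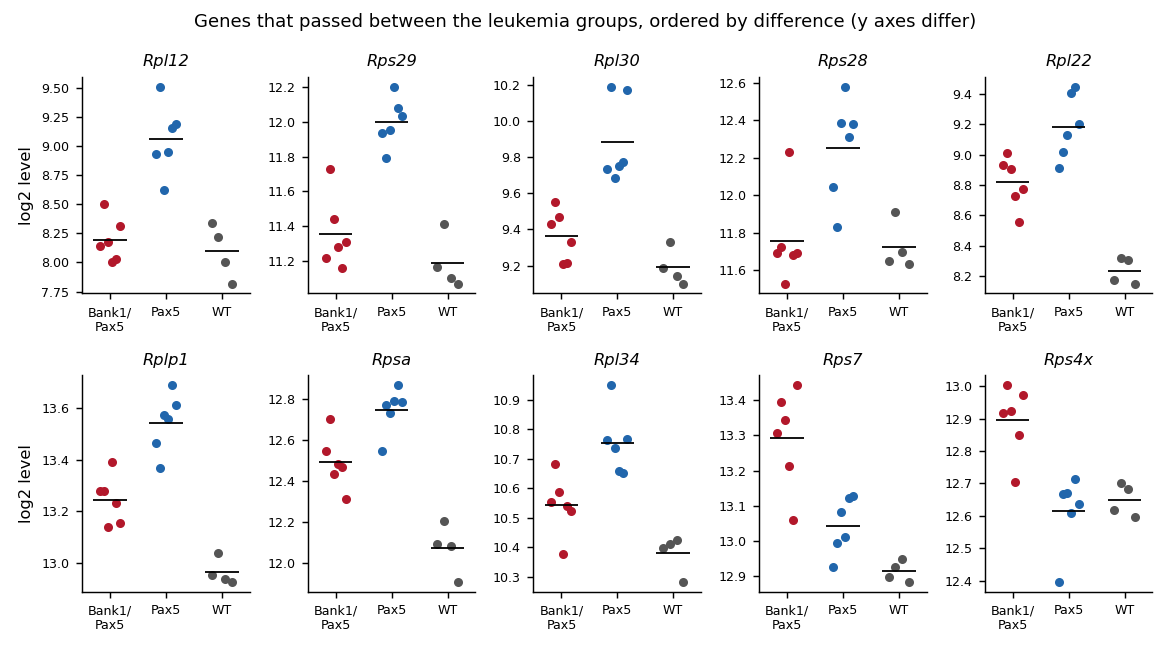
Log2 level of the 10 genes that passed between the leukemia groups, a point per array and a line at each group mean, with a separate y axis for each gene. For Rpl12, Rps29 and Rpl30 every Bank1/Pax5 point lies below every Pax5 point, and Rps4x and Rps7 are the panels in which the Bank1/Pax5 group is the highest.

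Several probe sets per gene allowed the same differences to be read again. Of the 208 probe sets, 111 rose in Bank1/Pax5 leukemia and 113 in Pax5 leukemia against WT, and none fell, where 7.09% and 9.79% of all probe sets naming 1 gene rose. Between the leukemias 8 rose and 19 fell, against 1.81% and 5.13%. Of the 38 genes with several probe sets, none had probe sets called in opposite directions in any of the 3 comparisons. Probe sets of a gene can share transcripts, and 12 repeated the values of another (5 genes), so that they are not independent readings.

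Rps29 fell in 4 of 4 probe sets between the leukemias, at -0.68 to -0.64, and Rps28 fell in 7 of 7, at -0.55 to -0.45. Rps4x rose in 5 of 5, at 0.28 to 0.34, and Rps7 in 2 of 3, at 0.19 to 0.25. Rplp1 fell in 1 of 2 and Rpsa in 1 of 5, where the Rpsa probe sets ran from -0.26 to 0.11. Rpl24, which missed the threshold with the probe set used (-0.36, adjusted p = 0.0509; 0.0268 without Bank1/Pax5 array 4), fell in its other 2 probe sets. Rps6 rose in 1 of 8, at 0.07 to 0.15, though not in the probe set used. Rpl12 and Rpl22 had a single probe set each.

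Against WT, Rps12 rose in all 14 of its probe sets in both leukemias, of which only 8 held distinct values, at 0.51 to 0.64 in Bank1/Pax5 and 0.69 to 0.85 in Pax5 leukemia, and Rpl13 rose in all 9, at 0.59 to 0.77 and 0.48 to 0.60. Rpl10 rose in none of 6 and Rps6 in none of 8 in either leukemia. The size depended on the probe set for Rplp1, at 0.28 to 0.90 in Bank1/Pax5 and 0.58 to 1.09 in Pax5 leukemia, the smaller value being that of the brighter probe set.

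**Figure D5:**
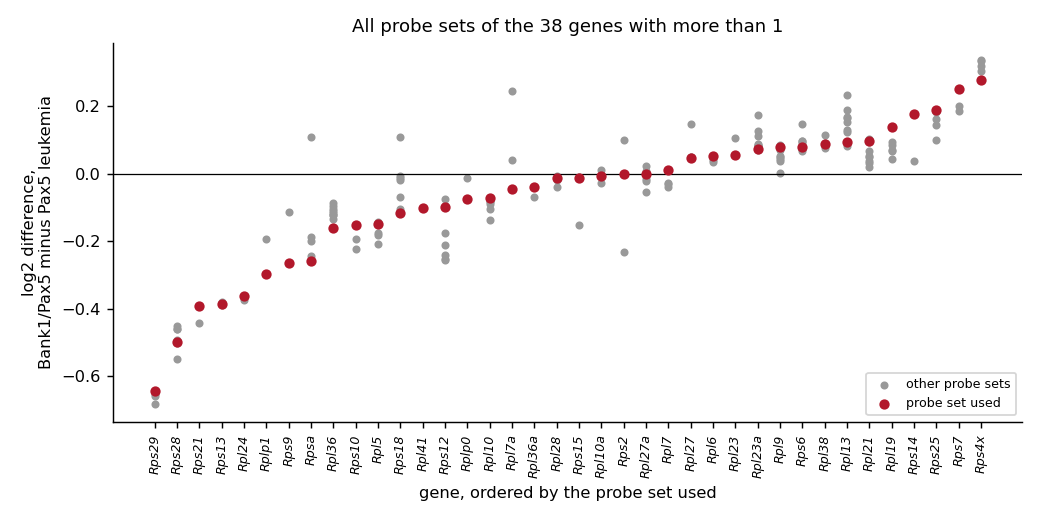
Log2 difference between Bank1/Pax5 and Pax5 leukemia for all probe sets of the 38 genes with more than 1, red for the probe set used and grey for the others, with genes ordered by the red points. The probe sets of Rps29 and Rps28 lie together at the low end and those of Rps4x at the high end, while Rpsa, Rpl7a and Rps2 have probe sets on both sides of 0.

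The largest differences lay outside the brightest members, and the median difference from WT fell with rising signal in Pax5 leukemia alone. Of the 22 members with a mean above 12.5, none differed from WT by more than 0.45 in Bank1/Pax5 leukemia or 0.58 in Pax5 leukemia, with medians of 0.20 and 0.15. In the 21 members between 11 and 12.5 the medians were 0.28 and 0.44, with a largest difference of 1.08 (Rpl24 in Pax5 leukemia). In the 10 members under 11 the medians were 0.22 and 0.63. Numbers that passed were 12 and 9 of 22, 11 and 14 of 21, and 3 and 8 of 10 in Bank1/Pax5 and Pax5 leukemia. Over all genes, at any signal, 6.8% and 9.53% rose, and shares of all genes within these signal bands are not given. Between the leukemias 4 of the 10 members under 11 fell, beside 5% of all genes, with a median of -0.29. In the 22 above 12.5 the median was -0.00. The highest signals were those of Rps6, Rplp0 and Rps15 and the lowest those of Rpl12, Rplp2 and Rpl22, but signal differs between probes and does not rank the mRNAs. The part of the array's upper range in these sizes was not tested.

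Within a group, single arrays often held the extreme values. The SD of a member over the 6 Bank1/Pax5 leukemia arrays had a median of 0.14 and reached 0.40 for Rps13, beside a median of 0.18 over all genes. In Pax5 leukemia it had a median of 0.12 and reached 0.31 for Rpl14, and in WT it had a median of 0.07. Bank1/Pax5 array 2 held the highest value of its group for 33 of the 53 genes and the lowest for none. Bank1/Pax5 array 4 held the lowest value for 27 and the highest for 9.

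The genes lowest on Bank1/Pax5 array 4 included Rpl36, at 11.57 where the other 5 arrays were at 12.07 or more, Rps13, at 10.22 against 10.67 or more, and Rps21, at 9.37 against 9.80 or more. On the same array Rps28, at 12.23, and Rpl24, at 11.71, were above the other 5, which reached 11.73 and 11.44. Rps13 passed in Pax5 leukemia against WT (0.59, SE 0.16, adjusted p = 0.0168) and differed by 0.21 in Bank1/Pax5 leukemia (SE 0.16, adjusted p = 0.398). Pax5 array 1 held the lowest value of its group for 25 members, WT array 4 for 36, and WT array 2 the highest for 38. Without WT array 4 the counts of members that rose were 19 in Bank1/Pax5 leukemia and 22 in Pax5 leukemia, and without Bank1/Pax5 array 4 and Pax5 array 1 they were 32 and 35.

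Of the 20 genes listed for human Diamond-Blackfan anemia, 10 were members. Of these 4 rose in Bank1/Pax5 leukemia (Rps7, Rpl26, Rps20, Rps19), 4 in Pax5 leukemia (Rps29, Rpl26, Rps28, Rps19) and none fell in either, with 4 and 7 higher and none lower at an unadjusted p under 0.05 in limma. At that unadjusted level limma placed 2487 of all 19938 genes higher in Bank1/Pax5 leukemia and 2878 in Pax5 leukemia, and 4073 and 4593 lower. Of the other 43 members 22 and 27 rose after adjustment, beside 6.8% and 9.53% of all genes. The median differences were 0.17 and 0.29 for the anemia genes, beside 0.25 and 0.33 in the other 43 members. Between the leukemias Rps7 rose and Rps29 and Rps28 fell, beside 1.71% of all genes that rose and 5% that fell.

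Ribosomal proteins outside the naming rule included a larger change. Rps3a1, a small subunit protein at the mRNA exit, averaged 11.56 in Bank1/Pax5 leukemia, 11.29 in Pax5 leukemia, against 10.27 in WT, and rose by 1.29 (SE 0.19, adjusted p = 0.00028) and 1.01 (SE 0.19, adjusted p = 0.00156). Rps27l, a p53-induced relative of Rps27, rose by 0.55 (SE 0.19, adjusted p = 0.0487) and 0.99 (SE 0.19, adjusted p = 0.00155). Fau, whose product is cleaved to a small subunit protein, differed by -0.07 in both. Of the 8 measured of 13 such genes, 3 rose in Bank1/Pax5 leukemia and 2 in Pax5 leukemia, beside 6.8% and 9.53% of all genes. None fell, also at an unadjusted p under 0.05 in limma, beside 12.8% and 13.8% of all genes that passed as lower. Between the leukemias 1 rose and none fell, beside 1.71% and 5% of all genes. There limma placed 1 higher and 2 lower at an unadjusted p under 0.05, beside 1860 and 2658 of all 19938 genes.

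Of 16 measured of 18 elongation factors and other mRNAs of the TOP class, 2 rose and 1 fell in Bank1/Pax5 leukemia, beside 6.8% and 12.8% of all genes, with a median of -0.04. In Pax5 leukemia 2 rose and none fell, beside 9.53% and 13.8% of all genes, with a median of 0.08. At an unadjusted p under 0.05 limma placed 3 higher and 1 lower in Bank1/Pax5 leukemia, and 8 higher and none lower in Pax5 leukemia. Of all 19938 genes it placed 2487 higher and 4073 lower in Bank1/Pax5 leukemia, and 2878 and 4593 in Pax5 leukemia. Eef1b2, an elongation factor subunit, rose by 0.42 (SE 0.09, adjusted p = 0.00584) and 0.62 (SE 0.09, adjusted p = 0.000311). Eef2, which moves the ribosome along the mRNA, fell by 0.25 in Bank1/Pax5 leukemia (SE 0.04, adjusted p = 0.0003) against WT and by 0.19 (SE 0.03, adjusted p = 0.00497) against Pax5 leukemia. Between the leukemias 3 genes fell (Nap1l1, Eef2, Eif3l) and 1 rose (Naca), beside 5% and 1.71% of all genes, with a median of -0.12. There limma placed 1 higher and 6 lower at an unadjusted p under 0.05, beside 1860 and 2658 of all 19938 genes.

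Many ribosome assembly factors rose as well. Of 20 measured of 21, 8 rose in Bank1/Pax5 leukemia and 12 in Pax5 leukemia, beside 6.8% and 9.53% of all genes, with medians of 0.34 and 0.62 and none lower, also at an unadjusted p under 0.05 in limma. Mdn1, a nucleolar ATPase of the large subunit precursor, rose by 0.72 (SE 0.11, adjusted p = 0.000263) and 1.32 (SE 0.11, adjusted p = 1.66e-06). Gnl3 (nucleostemin) rose by 0.82 (SE 0.15, adjusted p = 0.00126) and 1.32 (SE 0.15, adjusted p = 2.56e-05), and Tsr1, a small subunit factor, by 0.88 (SE 0.15, adjusted p = 0.000767) and 1.18 (SE 0.15, adjusted p = 6.7e-05). Between the leukemias 5 fell (Mdn1, Grwd1, Gnl3, Sdad1, Rrs1) and none rose, beside 5% and 1.71% of all genes, with a median of -0.31. There limma placed 11 lower and none higher at an unadjusted p under 0.05, beside 2658 and 1860 of all 19938 genes.

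Among 17 measured of 19 regulators of TOP mRNAs and mTORC1, 2 rose and 4 fell in Bank1/Pax5 leukemia (all genes 6.8% and 12.8%) and 4 rose and 2 fell in Pax5 leukemia (all genes 9.53% and 13.8%). Myc, the transcription factor that drives ribosome production, averaged 11.27 in Bank1/Pax5 leukemia, 11.64 in Pax5 leukemia, against 9.71 in WT, and rose by 1.56 (SE 0.17, adjusted p = 2.41e-05) and 1.93 (SE 0.17, adjusted p = 3.77e-06). Larp1, the TOP mRNA binder, rose by 0.67 (SE 0.14, adjusted p = 0.0034) and 0.83 (SE 0.14, adjusted p = 0.000671). Rps6kb2, an S6 kinase, fell by 0.78 (SE 0.09, adjusted p = 4.3e-05) and 0.61 (SE 0.09, adjusted p = 0.000289). Between the leukemias 1 gene fell, Eif4ebp2 (-0.47, SE 0.11, adjusted p = 0.0244), and none rose, beside 5% and 1.71% of all genes. There limma placed 6 lower and none higher at an unadjusted p under 0.05, beside 2658 and 1860 of all 19938 genes.

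Of 18 measured of 22 initiation factors, 4 rose and 1 fell in Bank1/Pax5 leukemia (all genes 6.8% and 12.8%) and 8 rose and 1 fell in Pax5 leukemia (all genes 9.53% and 13.8%), with Eif1a, which scans for the start codon, at 0.81 (SE 0.11, adjusted p = 0.000172) and 0.77 (SE 0.11, adjusted p = 0.000229). None passed between the leukemias in limma, beside 1.71% of all genes that rose and 5% that fell. There 1 was higher and 4 lower at an unadjusted p under 0.05, beside 1860 and 2658 of all 19938 genes. Of the 77 mitochondrial ribosomal proteins, 8 rose and 3 fell in Bank1/Pax5 leukemia, where 6.8% of all genes rose and 12.8% fell. In Pax5 leukemia 21 rose and 2 fell, where 9.53% of all genes rose and 13.8% fell, and the medians of the list were 0.16 and 0.22. Mrps34 rose by 1.10 (SE 0.11, adjusted p = 1.34e-05) and 0.87 (SE 0.11, adjusted p = 7.62e-05), while Mrpl49 fell by 1.33 in Bank1/Pax5 leukemia (SE 0.23, adjusted p = 0.00108). Between the leukemias 5 of the 77 fell, Mrps24 first (-0.44, SE 0.07, adjusted p = 0.00382), and none rose, beside 5% and 1.71% of all genes. At an unadjusted p under 0.05 limma placed 5 higher and 18 lower, beside 1860 and 2658 of all 19938 genes.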

How the data were processed

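RNA of 16 samples, each labelled a biological replicate, was labelled with biotin and hybridised to an array each. The deposited values are log2 probe set levels that the authors obtained with RMA in the oligo package, per the submitters' processing notes, without stated versions. Background and filter settings, and, likewise, batches, the array's genome build and probe positions are stated nowhere in the sources used here. The values were used without further scaling. Of 35556 probe sets, 21789 named 1 gene, 1621 several and 12146 none, and 91 kept their older name for want of a current record. The probe set with the highest mean was kept per gene, which can favour one that also binds relatives or pseudogenes, since ribosomal proteins have many.

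With limma 3.58.1 (R 4.3.3) a model with a mean per group was fitted across the 16 arrays with empirical Bayes moderation; the procedure was tested on simulated data, and p-values were Benjamini-Hochberg adjusted over 19938 genes. Marker levels were summed on the linear scale and given as log2. The genes named were up to 10 that passed with the smallest p in each direction, the 3 with the largest difference, a fixed set of 9 measured members, the 3 highest and 3 lowest in signal, and up to 3 of each companion list. Rpl36, Rps13, Rps21 and Rpl41 were added after their values were seen, as were Fau and further genes that complete a count. Members and lists were chosen with earlier results of these data known. Alternatives were median centring, cyclic loess, a filter on dim genes, other ways to combine probe sets, trended robust moderation, array weights, a replicate block, fits to only the groups compared, and leaving out arrays.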

Additional observations from a re-analysis of the deposited data

Results flagged for a closer look

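In 5 of 90 gene and group combinations examined 1 array stood far from the rest, a share near the 1 in 20 that chance gives. Rpl14 read 9.20 on Pax5 array 1, where the next array read 9.80. Rps4x read 12.40 on the same array, with the next at 12.61. Rps28 read 12.23 on Bank1/Pax5 array 4, with the next at 11.73, Rps12 read 11.79 on WT array 2, with the next at 11.58, and Rps19 read 11.11 on WT array 4, with the next at 11.28.

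The effects of the leukemias relative to the same WT arrays differed for 10 members by the test of Bank1/Pax5 against Pax5 leukemia. The log2 differences were -0.87 for Rpl12, -0.64 for Rps29, -0.52 for Rpl30, -0.50 for Rps28, -0.37 for Rpl22, -0.30 for Rplp1, -0.26 for Rpsa and -0.21 for Rpl34, and 0.28 for Rps4x and 0.25 for Rps7.

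Signal outside the comparisons came from 233 probe sets that name a ribosomal protein gene together with other genes. Against WT, 101 of them rose in Bank1/Pax5 leukemia and 129 in Pax5 leukemia, where 7.40% and 10.1% of all 23410 probe sets with a gene name rose, and 1 fell in each.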

How the results depend on the processing

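Against WT, members that rose numbered 20 to 34 in Bank1/Pax5 leukemia and 25 to 41 in Pax5 leukemia over the settings that kept all arrays, with the lowest count under the replicate block and the highest with array weights. Of all genes 4.22% and 7.01% rose under the replicate block and 12.9% and 16.5% with array weights, so the number of calls moved there too. Leaving out single arrays gave 19 to 32 and 22 to 35 members. Shares of all genes are not given for fits that left out arrays. No member fell in Pax5 leukemia in any setting. In Bank1/Pax5 leukemia Rpl41 alone fell, making 1 member that fell with array weights (-0.14) and 0 to 1 on leaving out single arrays (-0.15 without array 4).

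Between the leukemias the counts were less stable. Members that rose numbered 1 after median centring, 4 after cyclic loess, 1 with the replicate block, 0 in a fit to only those 2 groups, 1 without the 3 arrays of low Pax5 mRNA (an alternative chosen after seeing the data) and 1 to 2 on leaving out single arrays. With the probe set of largest interquartile range Rps6 rose as well (0.15, adjusted p = 0.0257), beside Rps4x and Rps7. Members that fell numbered 3, 5 and 4 after cyclic loess, with the replicate block and in the 2-group fit, 5 with trended robust moderation, 3 without the low Pax5 arrays and 4 to 10 on leaving out single arrays. Of all genes 2.27% rose and 3.10% fell after cyclic loess, and 0.813% and 2.68% with the replicate block. The lower counts of 4 or 5 came without Bank1/Pax5 array 1, 5 or 6 or Pax5 array 3, 4, 5 or 6, and the single rise without Pax5 array 4. Rps29, Rpl12 and Rpl30 fell in every setting run. Rpsa reversed to 0.11 (adjusted p = 0.737) with the probe set of largest interquartile range. The cause of these shifts was not tested.

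The median over the members on each array averaged 12.33, 12.39 and 11.93 in Bank1/Pax5 leukemia, Pax5 leukemia and WT in the main fit. It averaged 11.995, 12.08 and 11.72 in the same order with probe sets averaged and 11.97, 12.05 and 11.70 with the probe set of largest interquartile range. After cyclic loess it averaged 12.31 in Pax5 leukemia. Over all genes median centring gave 1495 that rose and 2099 that fell in Bank1/Pax5 leukemia, and cyclic loess gave 2079 and 1933, against 1356 and 2543 as deposited. In Pax5 leukemia these were 2021 and 1953, 2302 and 2136, against 1901 and 2754. Between the leukemias they were 271 and 873, 452 and 618, against 340 and 996.

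Deviations of same-numbered arrays from their group means correlated at -0.38 to 0.32 over 14 pairs, 6 of them above 0.1. With so few arrays per group these values cannot settle whether the numbers pair samples. The main fit treated the arrays as unpaired. Probe positions are not given, and the part of array background and upper range in the small differences of bright genes was not tested.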
